A study of Mus musculus with 2 samples.

Results

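The genes of cholesterol and fatty acid synthesis examined here are 30 genes chosen by name: enzymes from acetyl-CoA to cholesterol, the proteins that sense sterol and control these enzymes, the enzymes that make and modify fatty acids, and 1 sterol carrier. They are 30 of the 31821 gene names on the arrays and have 43 probes. For each gene, the probe with the brightest mean signal was used. On both arrays, all 30 gave signals well above background for knockout and control. All are among the 19707 genes tested, for which 1 genotype, the same one each time, had to be well above background on each array.

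Total kidney RNA of 2-month-old mice was measured by microarray. The knockout mice were *Cnnm2*fl/fl;*Six2-Cre*, in which both alleles of the Mg2+ transporter gene *Cnnm2* are deleted where *Six2-Cre* has acted, and the control mice were *Cnnm2*+/+;*Six2-Cre*, so both genotypes carried the Cre transgene. *Six2* drives Cre in the progenitors that form the nephron epithelium, and the collecting duct, stroma and vessels arise from other progenitors. Both RNAs were hybridized together, with knockout in Cy5 on array 1 and in Cy3 on array 2. How many mice each RNA came from is not given in the sources used here, nor is it stated that both arrays carried the same RNA. The arrays were therefore treated as 1 replicate of each genotype with the labeling repeated, no test over mice could be made, the methods' t-test over the arrays is given once for comparison, and each SD here is taken over the arrays.

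Cells build cholesterol from acetyl-CoA through mevalonate and squalene, and they build fatty acids from the same precursor through malonyl-CoA. The transcription factors encoded by *Srebf1* and *Srebf2* turn on the genes of both pathways when sterol in the endoplasmic reticulum is low. SCAP then escorts them to the Golgi for cleavage, while INSIG proteins hold them back when sterol is plentiful, so the enzymes of a pathway are known for rising and falling together.

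Transcription factors act on many genes at once through binding sites in promoters, so 4 promoters are shown, from 250 bases before the start site up to the start site. They belong to an early sterol enzyme (*Hmgcs1*), a mevalonate kinase (*Mvk*), a sterol sensor (*Insig1*) and fatty acid synthase (*Fasn*). Sequences and coordinates are those of RefSeq on GRCm38.p6: chr13:119690101-119690350 (plus strand) for *Hmgcs1*, chr5:114444019-114444268 (plus) for *Mvk*, chr5:28071162-28071411 (plus) for *Insig1* and chr11:120824548-120824797 (minus) for *Fasn*. Capitals mark matches on either strand to a sterol regulatory element (TCACNCCAC), a CCAAT box (CCAAT, read as ATTGG on the other strand) or an E-box (CACGTG).
Hmgcs1: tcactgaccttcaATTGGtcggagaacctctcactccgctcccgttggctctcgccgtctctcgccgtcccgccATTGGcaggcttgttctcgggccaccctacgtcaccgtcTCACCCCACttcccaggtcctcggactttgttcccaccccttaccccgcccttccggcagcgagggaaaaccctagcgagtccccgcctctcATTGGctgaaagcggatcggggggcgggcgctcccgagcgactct
Mvk: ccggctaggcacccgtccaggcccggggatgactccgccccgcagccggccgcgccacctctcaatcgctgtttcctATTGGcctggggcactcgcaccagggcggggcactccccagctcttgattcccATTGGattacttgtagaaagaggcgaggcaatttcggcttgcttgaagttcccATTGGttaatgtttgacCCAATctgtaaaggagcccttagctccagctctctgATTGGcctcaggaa
Insig1: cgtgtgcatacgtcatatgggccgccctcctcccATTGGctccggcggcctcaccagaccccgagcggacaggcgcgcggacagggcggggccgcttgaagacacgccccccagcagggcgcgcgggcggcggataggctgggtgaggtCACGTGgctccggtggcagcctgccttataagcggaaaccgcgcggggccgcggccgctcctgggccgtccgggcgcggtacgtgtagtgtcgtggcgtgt
Fasn: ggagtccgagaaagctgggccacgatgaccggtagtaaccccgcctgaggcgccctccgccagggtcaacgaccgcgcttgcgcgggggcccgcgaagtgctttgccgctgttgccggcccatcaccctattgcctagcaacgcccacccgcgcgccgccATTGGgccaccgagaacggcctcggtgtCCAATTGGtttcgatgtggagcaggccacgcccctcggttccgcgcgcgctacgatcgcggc
In these stretches, *Hmgcs1* held 1 sterol regulatory element and 3 CCAAT boxes, *Mvk* held 5 CCAAT boxes, *Insig1* held 1 CCAAT box and 1 E-box, and *Fasn* held 3 CCAAT boxes, a pair of which overlap in the run CCAATTGG. Promoters of 250 bases before and 50 bases after the start were found for 24 of the 30 genes, with *Sc4mol* under its current symbol *Msmo1*. *Fdft1*, *Sqle*, *Fdps*, *Scd1*, *Scd2* and *Stard4* had no entry. A CCAAT box was found in 20 of the 24 genes (83.3%), against 41.1% of 27025 genes with a promoter. By role, it was present in 5 of 6 genes of the mevalonate arm, 9 of 9 genes from squalene to cholesterol, 4 of 5 genes of sterol sensing and 2 of 4 genes of fatty acid synthesis. The E-box was found in 5 of the 24 genes (20.8%, against 8.09%), and the sterol regulatory element in *Hmgcs1* alone (4.17%, against 1.44%). These are matches of letters, and none is shown to be bound by the products of *Srebf1* and *Srebf2* or by another factor. The 27025 genes were not limited to those well above background on the arrays, whereas the 24 were. The shares are therefore of unlike sets. Several genes have more than 1 start site, each of which was searched.

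**Figure D1:**
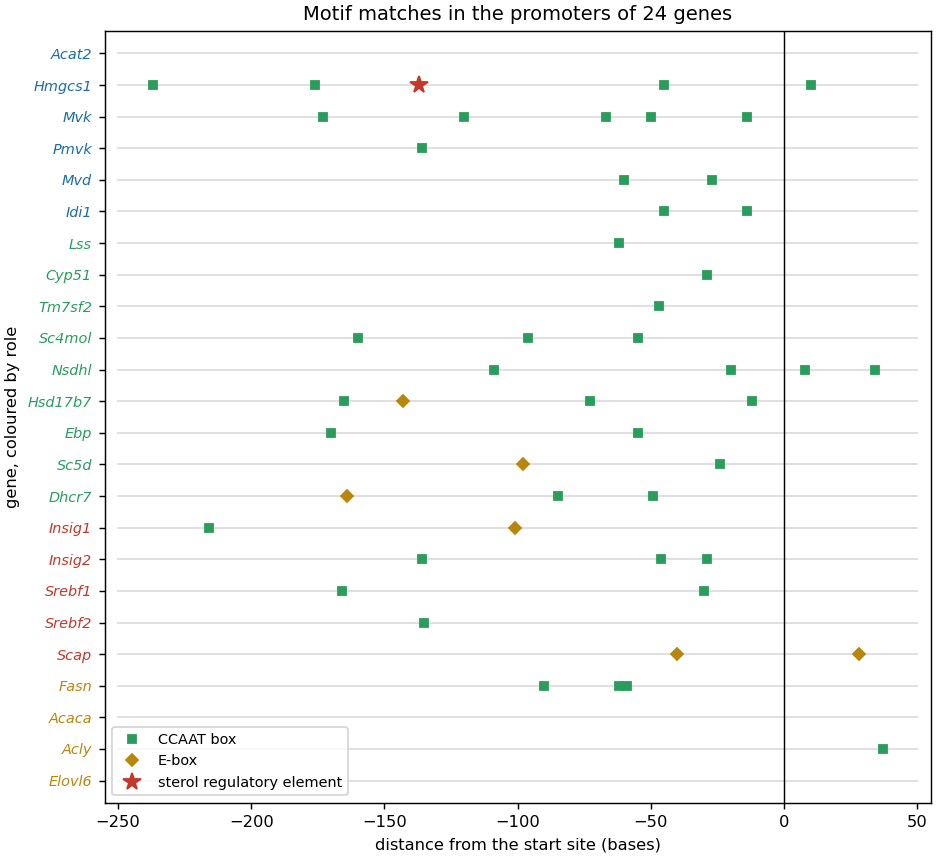
Matches to the sterol regulatory element (star), CCAAT box (square) and E-box (diamond) in 24 promoters; the horizontal axis is the distance in bases from the start site of the promoter searched, and a gene with several start sites has the matches of all of them on its row, so that the same E-box of *Scap* stands at 2 distances. Most rows hold a CCAAT box (20 of 24), and the star is on the *Hmgcs1* row.

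The targeted gene was checked first. The signal of its probe on array 1 was 626 for knockout against 4620 for control, and on array 2 it was 591 against 3247, so *Cnnm2* was lower in the knockout on both arrays (log2 ratio of knockout over control of -2.67 ± 0.30). Of 8 markers of tubule and glomerulus, all were well above background in both genotypes, with summed signals of 358371 to 473248 in the knockout and 398327 to 448858 in the control. Markers of adipocytes, which also make fatty acids, were above background for 6 of 7 genes (*Lep* was not), and their summed signal was 11713 to 17183 in the knockout and 15451 to 15551 in the control. Of 8 markers of the adrenal cortex, which makes steroids from cholesterol, 2 (*Cyp21a1* and *Nr5a1*) were well above background in both genotypes. *Star* was well above background in the control alone. The others, among them the defining enzymes *Cyp11a1*, *Cyp11b1* and *Cyp11b2*, were not well above background. The summed signal of the 8 was 180.2 to 197 in the knockout and 187 to 206 in the control. The ranges of the 2 genotypes overlapped for these 3 marker lists. The Y-linked genes *Ddx3y*, *Eif2s3y* and *Uty* were above background in both genotypes. The Y-linked *Kdm5d* and the X-linked *Xist* were well above background in neither.

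None of the 30 genes changed by 2-fold or by 1.5-fold. The mean of both arrays lay between -0.27 for *Srebf1* and 0.19 for *Idi1* on the log2 scale. It was under 0.1 in size for 21 of the 30 genes, against 52.7% of all genes tested. The median size was 0.082 for the 30 genes, 0.094 for all, and 0.078 for all at least as bright as the dimmest of the 30. By the rule of a mean change of at least 2-fold with the same direction on both arrays, 0.599% of all genes tested were counted (0.315% higher and 0.284% lower). By the same rule at 1.5-fold 2.06% were counted (1% higher and 1.06% lower), so 0 of 30 is near the background share and is no result about these genes. The median of the mean log2 ratio was -0.030 over the 30 genes and -0.0081 over all genes tested. With normexp background correction and loess, the median of the 30 genes was 0.00079, so its sign was not stable. Of all genes tested, 87.6% had a mean no larger in size than that of *Srebf1*. In whole-kidney RNA, fewer cells of a type and less RNA per cell cannot be told apart.

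A direction that held on both arrays was seen for 8 of the 30 genes (26.7%), against 27.7% of all genes tested. *Acat2* and *Scap* were higher in the knockout on both arrays, where 12.1% of all genes were. *Sqle*, *Hsd17b7*, *Ebp*, *Srebf1*, *Acaca* and *Elovl6* were lower on both, where 15.6% of all genes were. The mean exceeded the SD between arrays for 7 genes (23.3%, against 20.7% of all genes tested), namely these 8 without *Acat2*. For *Hsd17b7*, *Srebf1* and *Elovl6*, both knockout signals were below both control signals, and for no gene of the 30 were both above. Of all genes tested, 5.41% had both knockout signals below, 5.88% had both above, and 11.3% had either. With both directions pooled, the shares lay near those of all genes. Split by direction, the shares lower in the knockout (6 and 3 of the 30) were above those of all genes (15.6% and 5.41%). The shares higher in the knockout (2 and 0 of the 30) were below those of all genes (12.1% and 5.88%). These counts are of few genes and were not tested.

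**Figure D2:**
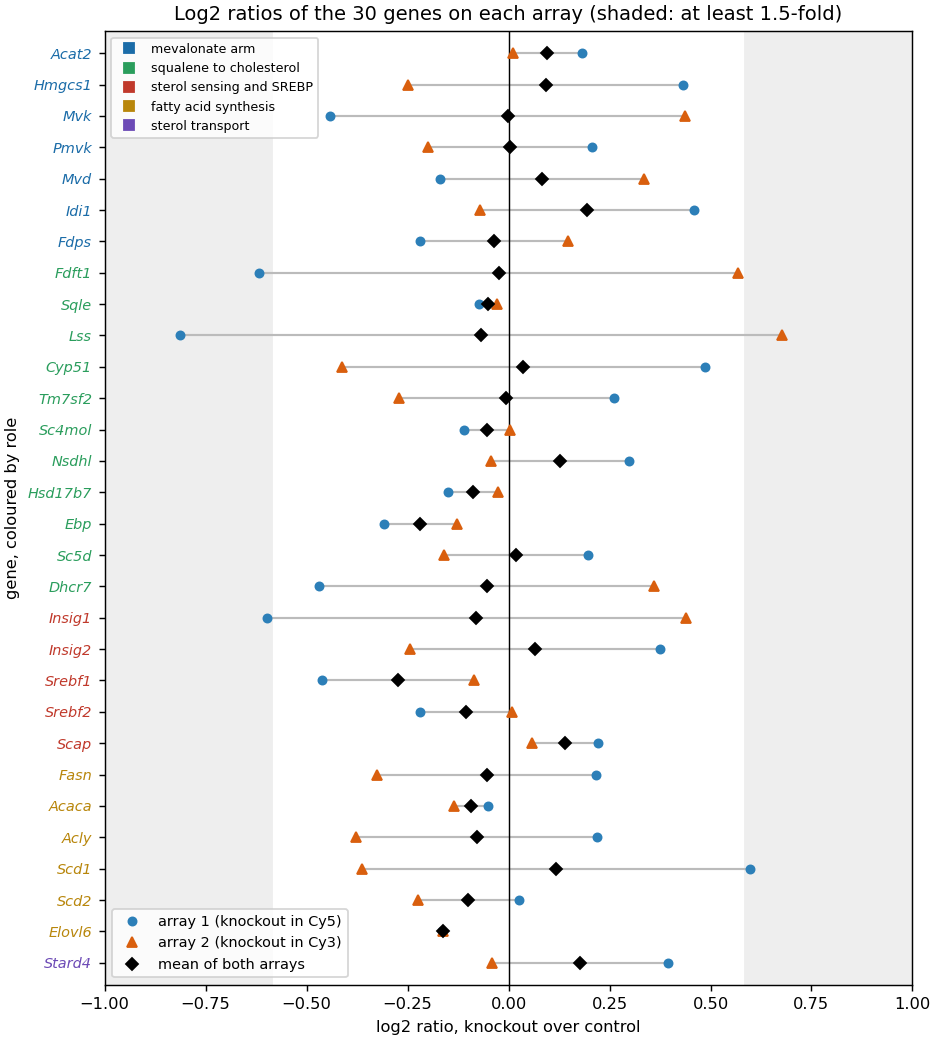
Log2 ratio of knockout over control for each of the 30 genes on array 1 (circles), array 2 (triangles) and as the mean of both (diamonds), with gene names coloured by role and ratios of at least 1.5-fold shaded. The circle and triangle lie on opposite sides of 0 for 22 genes, while the diamonds stay between -0.27 and 0.19.

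The ratios of the other 22 genes pointed in opposite directions on the arrays. For them, by construction, the part of the ratio that turned with the dyes exceeded the mean in size. This part was taken as the array 1 ratio minus the array 2 ratio, divided by 2. Effects of the dyes and other differences between the 2 arrays cannot be told apart in it. The SD of this part over the 30 genes was 0.31, against an SD of 0.11 for the mean. Over all genes tested these values were 0.40 and 0.23, and over the 12671 genes at least as bright as the dimmest of the 30 they were 0.34 and 0.17. Across the 30 genes, the ratios of the arrays had a Pearson's r of -0.80 and a Spearman's rho of -0.72, and across all genes tested -0.51 and -0.56, given as a description, since the genes share the same 2 arrays.

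**Figure D3:**
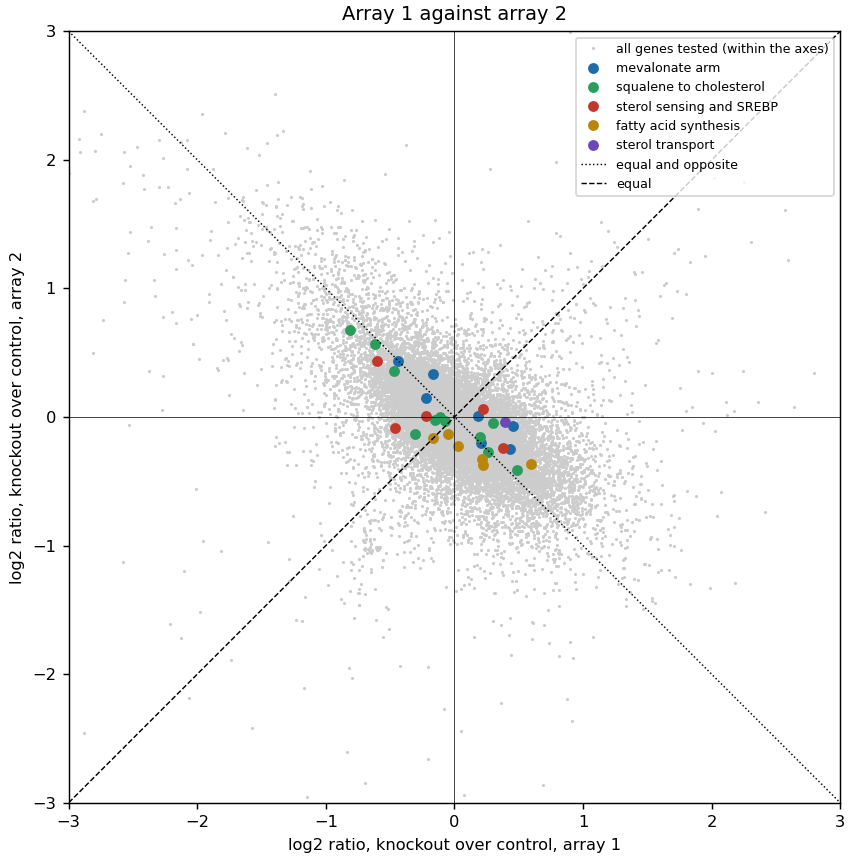
Log2 ratio of knockout over control on array 2 against array 1, with all genes tested in grey (those within the axes) and the 30 genes coloured by role. Of the coloured points, 22 have opposite signs on the arrays, and 8 have the same sign, among them *Elovl6* on the dashed line of equal ratios (-0.17 and -0.16).

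The mevalonate arm makes the isoprenoid precursors of sterols. Its 7 genes had a median log2 ratio of 0.084 in the mean of both arrays, with 0.18 on array 1 and 0.011 on array 2. *Idi1*, which isomerizes isopentenyl diphosphate, had the highest mean of the 30 genes. Its signal on array 1 was 15891 for knockout against 11564 for control, and on array 2 it was 10448 against 10969. The knockout was therefore the brighter channel on array 1 and the dimmer one on array 2. The log2 ratios were 0.46 and -0.070, with a mean of 0.19 ± 0.37. *Hmgcs1*, which makes HMG-CoA, had the brightest probe of the 30, with 47888 and 35487 on array 1 and 30482 and 36229 on array 2 (knockout first in each pair). Its log2 ratios of 0.43 and -0.25 averaged 0.092 ± 0.48.

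*Acat2*, the cytosolic thiolase at the start of the arm, was the only gene of the arm with 1 direction on both arrays. Its signal on array 1 was 1255 for knockout against 1107 for control, and on array 2 it was 1308 against 1297. The difference on array 2 was small, with log2 ratios of 0.18 and 0.011 and a mean of 0.096 ± 0.12. The kinases that phosphorylate mevalonate in turn had means near 0. *Mvk* had log2 ratios of -0.44 and 0.44 (mean of -0.0016 ± 0.62). *Pmvk* had 0.21 and -0.20 (mean of 0.0031 ± 0.29). For both kinases, the ratios of the arrays were close to equal and opposite. *Mvd*, the decarboxylase that follows, had -0.17 and 0.34 (mean of 0.084 ± 0.36). *Fdps*, which makes farnesyl diphosphate, had -0.22 and 0.15 (mean of -0.036 ± 0.26).

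The 11 genes from squalene to cholesterol had a median log2 ratio of -0.050, with -0.11 on array 1 and -0.027 on array 2. Of them, 8 had a mean below 0, a larger share than the 10316 of the 19707 genes tested. Lower on both arrays were 3 of the 11 (27.3%), where 15.6% of all genes were. Both counts are of few genes and were not tested. The lowest mean of the 11 was that of *Ebp*, a sterol isomerase, whose probe lies on chromosome X of mm9 from 7762463 to 7762522. The *Ebp* signal on array 1 was 22459 for knockout against 27824 for control, and on array 2 it was 16688 against 18242. It was lower in the knockout on both arrays, although the knockout signal of array 1 was above the control signal of array 2. The log2 ratios of -0.31 and -0.13 gave a mean of -0.22 ± 0.13, which is a difference of -14.1%. *Sqle*, the epoxidase that makes the first oxygenated intermediate, had 6506 and 6842 on array 1 and 5274 and 5376 on array 2, with log2 ratios of -0.073 and -0.027 and a mean of -0.050 ± 0.032. The *Hsd17b7* signal, for a ketosterol reductase, was 508 and 563 on array 1 and 519 and 528 on array 2, with log2 ratios of -0.15 and -0.026 and a mean of -0.088 ± 0.088. The sign of *Hsd17b7* depended on the probe, since its other probe had log2 ratios of 0.12 and 0.031 (mean of 0.077 ± 0.065).

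*Lss*, which closes the ring of lanosterol, showed the largest turn with the dyes. Its signal on array 1 was 308 for knockout against 541 for control, and on array 2 it was 532 against 333. The signals of the knockout and control thus nearly changed places between the arrays, with log2 ratios of -0.81 and 0.68 and a mean of -0.068 ± 1.05. *Fdft1*, squalene synthase, had -0.62 and 0.57 (mean of -0.025 ± 0.84). *Cyp51*, the lanosterol demethylase, had 0.49 and -0.41 (mean of 0.037 ± 0.63). *Dhcr7*, which makes cholesterol in a last reduction, had -0.47 and 0.36 (mean of -0.054 ± 0.59). On array 1 alone, *Lss* and *Fdft1* would have been counted as more than 1.5-fold lower.

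The remaining enzymes of these steps varied less. *Tm7sf2*, a sterol reductase, had log2 ratios of 0.26 and -0.27 (mean of -0.0062 ± 0.38). *Sc5d*, a sterol desaturase, had 0.20 and -0.16 (mean of 0.019 ± 0.25). The methyl groups of lanosterol are removed by *Sc4mol*, with -0.11 and 0.0036 (mean of -0.053 ± 0.081), and *Nsdhl*, with 0.30 and -0.044 (mean of 0.13 ± 0.24). The means of all 4 were smaller than the SD of the arrays.

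Among the 5 genes of sterol sensing, the median log2 ratio was -0.080, with -0.22 on array 1 and 0.0078 on array 2. *Srebf1*, which encodes the factor known for fatty acid genes, had the lowest mean of the 30 genes. Its probe lies on chromosome 11 of mm9 from 60012664 to 60012723. The *Srebf1* signal on array 1 was 434 for knockout against 597 for control, and on array 2 it was 439 against 465. Both knockout signals were below both control signals, but most of the difference was on array 1. The log2 ratios were -0.46 and -0.085, with a mean of -0.27 ± 0.27, or a difference of -17.3%. *Srebf2*, whose product is known for the sterol genes, had signals of 273 and 318 on array 1 and 349 and 348 on array 2, with log2 ratios of -0.22 and 0.0078 and a mean of -0.11 ± 0.16.

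*Scap*, which encodes the escort of both factors, was higher in the knockout on each array. The *Scap* signal on array 1 was 12918 for knockout against 11073 for control, and on array 2 it was 10144 against 9742. The genotypes overlapped across the arrays, and the log2 ratios of 0.22 and 0.058 had a mean of 0.14 ± 0.12. The 2 genes for the proteins that retain SCAP turned in opposite ways with the dyes. *Insig1* had log2 ratios of -0.60 and 0.44 (mean of -0.080 ± 0.73). *Insig2* had 0.37 and -0.24 (mean of 0.065 ± 0.44). *Insig1* is itself a known target of these factors, and its mean was within the SD of the arrays.

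The 6 genes of fatty acid synthesis had a median log2 ratio of -0.086. All 6 were lower in the knockout on array 2, where the median was -0.28, but 4 of them were higher on array 1, where it was 0.12, so the direction of the group turned with the array. *Elovl6*, which elongates long-chain fatty acids, repeated most closely of the 30 genes. Its signal on array 1 was 1461 for knockout against 1638 for control, and on array 2 it was 1321 against 1477. The knockout was lower on both arrays by nearly the same amount, and both knockout signals were below both control signals. The log2 ratios were -0.17 and -0.16, with a mean of -0.16 ± 0.0030, or a difference of -10.7%. The *Elovl6* probe lies on chromosome 3 of mm9 from 129341248 to 129341307. By the methods' t-test, paired over the arrays, *Elovl6* was the only gene of the 30 with a p-value under the threshold of 0.1, as were 984 of all genes tested (4.99%). After Benjamini-Hochberg adjustment none was, and the smallest adjusted value over all genes was 1.0.

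*Acaca*, which makes malonyl-CoA, was lower on both arrays with its brightest probe. The *Acaca* signal on array 1 was 2983 for knockout against 3088 for control, and on array 2 it was 2393 against 2626, with log2 ratios of -0.050 and -0.13 and a mean of -0.092 ± 0.059. A pair of its probes share a run of 55 bases, offset by 1 base. The first 30 bases of each are shown, with bases of the shared run in capitals, because the pair measures nearly the same target.
A_55_P2019058: gCTTCAGTCCAATGCACTCTTCTCACGTTT
A_55_P2084706: CTTCAGTCCAATGCACTCTTCTCACGTTTT
The second of these had log2 ratios of 0.012 and -0.12 (mean of -0.056 ± 0.096). The sign on array 1 thus differed between the pair (-0.050 and 0.012), each read from 1 spot. Probes printed 10 times had a median SD between spots of 0.035 on that array. Another, dimmer probe of *Acaca* had -0.94 and 0.47 (mean of -0.23 ± 0.99).

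Of the other fatty acid genes, *Scd1* and *Scd2* encode desaturases that make monounsaturated fatty acids. The *Scd1* signal on array 1 was 6154 for knockout against 4068 for control, and on array 2 it was 4351 against 5597. It was thus above the control on array 1 and below it on array 2, with log2 ratios of 0.60 and -0.36 and a mean of 0.12 ± 0.68. *Scd2* had 0.025 and -0.22 (mean of -0.099 ± 0.18). *Acly*, which supplies cytosolic acetyl-CoA from citrate, had 0.22 and -0.38 (mean of -0.079 ± 0.42). *Fasn*, fatty acid synthase, had the dimmest probe of the 30, with signals of 214 and 184 on array 1 and 161 and 201 on array 2. Its log2 ratios of 0.22 and -0.33 averaged -0.055 ± 0.38, and this mean was 0.038 with normexp background correction and loess. *Stard4*, a sterol carrier of the cytosol, had signals of 2494 and 1898 on array 1 and 2170 and 2233 on array 2. Its log2 ratios were 0.39 and -0.041 (mean of 0.18 ± 0.31), and its other probe had 0.24 and 0.18 (mean of 0.21 ± 0.046), so this second probe was higher in the knockout on both arrays.

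**Figure D4:**
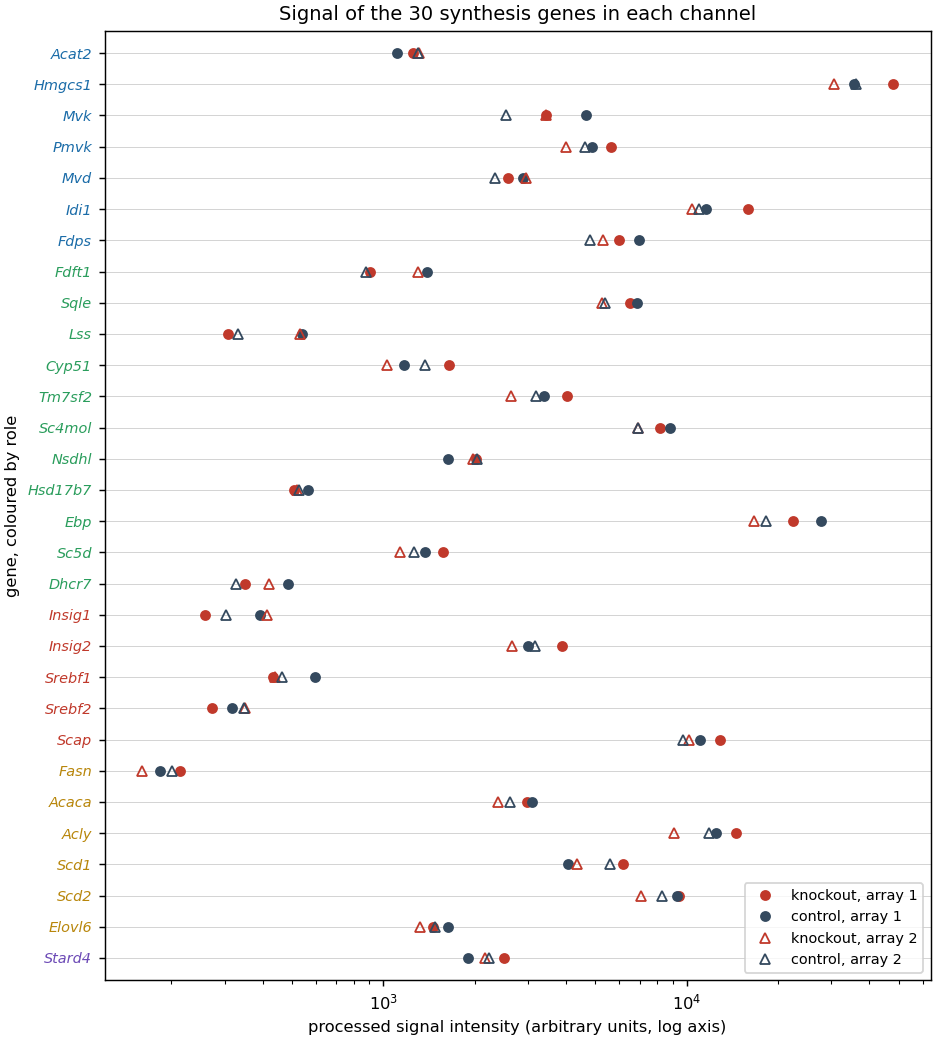
Processed signal of each of the 30 genes on a log axis, with knockout in red, control in dark blue, array 1 as filled circles and array 2 as open triangles. For *Lss*, the knockout point of array 1 (308) lies near the control point of array 2 (333), and for *Elovl6* the red points (1461 and 1321) are both left of the dark ones (1638 and 1477); positions of different genes are of different probes and are not comparable levels.

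More than 1 probe was present for 11 of the 30 genes, and 10 of them had more than 1 probe well above background in both genotypes. The means of such probes differed by at most 0.18, and they differed in sign for 2 genes, *Hsd17b7* and *Mvk*. The part that turned with the dyes differed more. The brightest *Tm7sf2* probe had log2 ratios of 0.26 and -0.27, and its other probe had -0.29 and 0.28 (mean of -0.0031). The other *Acly* probe had -0.87 and 0.79 (mean of -0.039), and the other *Srebf2* probe had -0.99 and 0.97 (mean of -0.0090). These *Acly* and *Srebf2* probes were dim, with mean log2 signals of 5.26 and 5.56, against 13.53 and 8.32 for the brightest probes. For *Tm7sf2* and *Acly*, probes of 1 gene turned in opposite ways with the dyes while their means stayed near 0. The share of G and C in the 30 probes ran from 35% to 55%. Across the 30 probes, the part that turned with the dyes had a Pearson's r of -0.27 and a Spearman's rho of -0.33 with this share, and 0.42 and 0.37 with the mean log2 signal, given as a description over 30 points from the same arrays.

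Around the 30 genes, 35 related genes were examined, and all of them were tested. None passed the 1.5-fold rule, and 6 (17.1%) had the same direction on both arrays, 5 higher and 1 lower, against 27.7% of all genes tested (12.1% higher and 15.6% lower). Among 5 genes of isoprenoid and sterol branches, the highest mean was that of *Ggps1*, which makes geranylgeranyl diphosphate (log2 ratios of 0.68 and -0.50, mean of 0.087). The lowest of these was *Dhdds*, which acts in dolichol synthesis (0.18 and -0.24, mean of -0.030). The median of the 5 genes was 0.052. Among 7 genes of SREBP processing and turnover, *Mbtps2*, the protease of the second cleavage, was highest (1.42 and -0.61, mean of 0.40) and *Mbtps1*, the protease of the first, was lowest (-0.50 and 0.25, mean of -0.13). Their median was -0.044.

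Among 13 genes of fatty acid supply, elongation and desaturation, the median was 0.028. *Fads2*, a desaturase of polyunsaturated fatty acids, was highest and had the same direction on both arrays (0.097 and 0.28, mean of 0.19). *Acacb*, the acetyl-CoA carboxylase of mitochondria, was lowest (0.060 and -0.69, mean of -0.31). Among 10 genes of the LXR pathway and of sterol export or storage, the median was 0.045, with -0.27 on array 1 and 0.34 on array 2. *Abcg1*, a sterol exporter, was highest and higher on both arrays (0.18 and 0.49, mean of 0.34 ± 0.22). *Lipa*, the lysosomal lipase, was lowest, with opposite directions (-1.08 and 0.32, mean of -0.38).

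**Figure D5:**
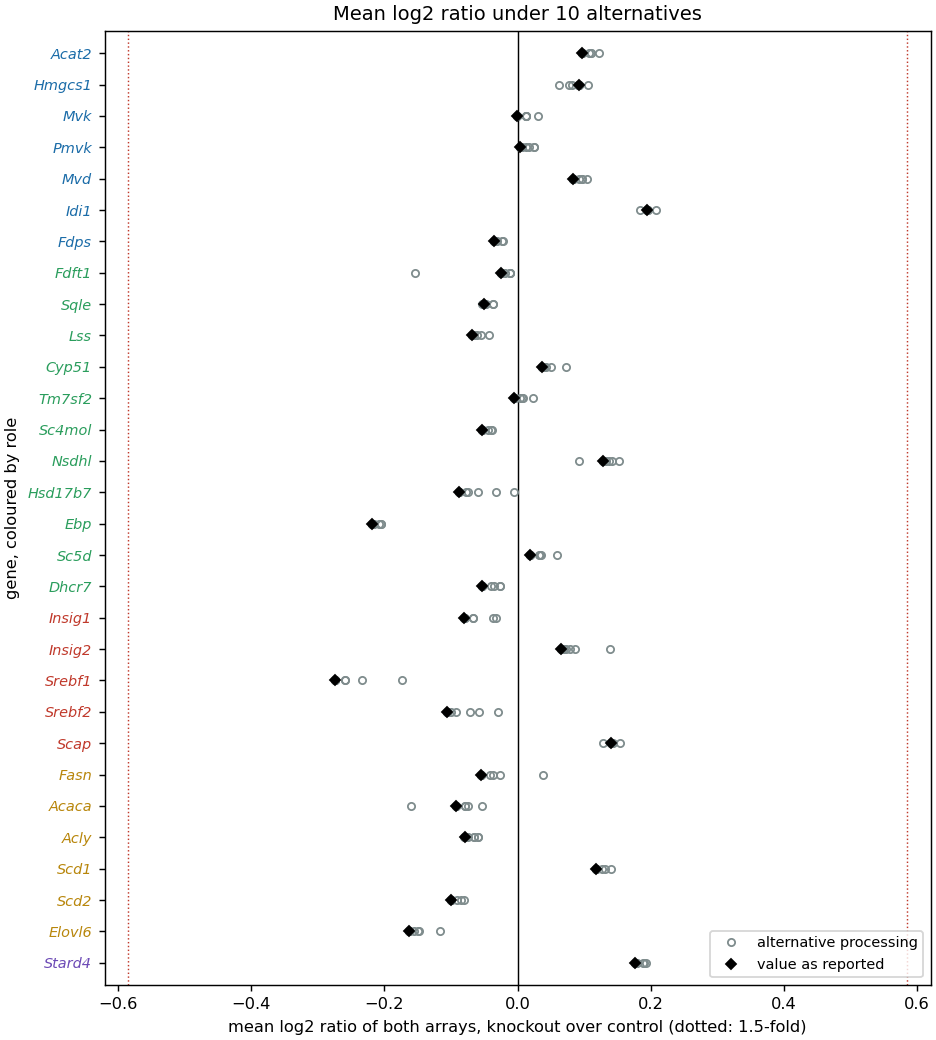
Mean log2 ratio of both arrays for each of the 30 genes as reported (diamonds) and under 10 alternative ways of processing (open circles), with dotted lines at 1.5-fold. All values lie between -0.27 and 0.21, inside the dotted lines. Deposited ratios, other limits on signal and marked spots kept repeat the reported values exactly or nearly so, by construction.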

How the data were processed

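Two-colour arrays (Agilent Mouse GE 4x44K v2) of knockout and control kidney RNA were read in both dye orientations. The authors deposited signal intensity per spot from Agilent Feature Extraction (10.7.3.1 in the file headers, 10.5.1.1 in the labels), which corrected the processed signals for background and dye within each array. They also deposited the log10 ratio of the channels, and the series matrix has log10 ratios turned to knockout over control (within 0.00492 of the scanner's values).

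Here, processed signals were taken to log2, and each ratio was turned to knockout over control by the dye labels. Control spots and marked spots (141 and 175 of 43020 on arrays 1 and 2, 0 of them of the 30 genes) were left out. Between 62.6% and 68.0% of gene spots per channel were well above background, and no gene spot was saturated. Probes printed 10 times had a median SD between spots of 0.035 on each array, and precision is limited by how few arrays there are. Changed meant a mean of at least 2-fold or 1.5-fold with the same direction on both arrays. Every one of the 30 genes is named, and of each related list its highest and lowest gene among those reported. A few genes of the related and fasting lists are not reported here and are in none of their counts. The genes, lists and rules were chosen with earlier results of these data known.

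Alternatives were normexp (offset of 50) with loess in limma 3.58.1, median-centred signals after background subtraction (with a floor of 1), loess without background correction, the deposited ratios, median centring, other limits on signal, the median over probes, marked spots kept, each array alone, the fold on each array, and the methods' t-test (two-sided, paired, 1 degree of freedom). Code was tested on simulated data. Python 3.11.15 and R 4.3.3 were used. Probe positions are those of mm9 in the files, and the exon or UTR of each probe was not analysed here.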

Additional observations from a re-analysis of the deposited data

How the results depend on the processing

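No gene of the 30 passed the 1.5-fold rule under any of the 10 alternatives that used both arrays, nor did any pass 2-fold under these or on either array alone. Of 300 values of single genes under these alternatives, 295 were within 1 SD of the arrays, and 27 of the 30 genes kept 1 sign (*Fasn*, *Mvk* and *Tm7sf2* did not). The 5 that moved by more were *Elovl6*, whose SD is small, at -0.12 to -0.16, and *Acaca* at -0.16 with the median over its probes. That median took in a probe of *Acaca* not well above background (log2 ratios of -2.55 and 1.21). Several of the 10 alternatives could not move the values of the 30 genes. All 30 met the other limits on signal, none of their spots was marked, and the deposited ratios repeat the processed signals. Agreement under those alternatives is by construction. With background-subtracted signals centred on the median, 5 of the 30 genes kept 1 direction over both arrays, against 8, and the share over all genes was 24.1%, against 27.7%. The cause was not tested.

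On array 1 alone 4 genes passed 1.5-fold (21.2% of all genes did), and on array 2 alone 1 did (17.1%). An array alone keeps the part of the ratio that has opposite signs on the arrays. The median from squalene to cholesterol was -0.11 on array 1 alone and -0.027 on array 2 alone, that of fatty acid synthesis was 0.12 and -0.28, and that of sterol sensing was -0.22 and 0.0078. The share of all genes past 1.5-fold was 0.533% with normexp and loess, 0.847% with loess alone, 1.44% where both genotypes had to be above background and 4.38% with no limit on signal, against 2.06%. The same rules with the methods' t-test counted 0 of the 30 genes.

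With the arrays treated as 1 replicate of each genotype, variation between mice was not measured.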

Other observations

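Of 3 genes known to rise in fasting, which were examined because feeding state is known to act on these pathways, *Angptl4*, an inhibitor of lipoprotein lipase, had the highest log2 ratio. Its signal on array 1 was 13041 for knockout against 9352 for control, and on array 2 it was 10501 against 7289. It was higher in the knockout each time, at log2 ratios of 0.48 and 0.53 and a mean of 0.50 ± 0.033, which is short of 1.5-fold. *Pdk4*, a kinase that slows pyruvate oxidation, was also higher on both arrays (0.45 and 0.13, mean of 0.29 ± 0.22). *Cpt1a*, which carries fatty acids into mitochondria, had -0.012 and 0.094 (mean of 0.041 ± 0.075). These genes are part of a longer list, so no direction of the list is given, and the feeding state of the mice is not given in the sources used here.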
